A study of Rattus norvegicus with 6 samples.

Results

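The miR-26 and miR-101 families were followed in the left ventricle of 3 OLETF and 3 LETO rats through 4 RT-qPCR assays, those of miR-26a, miR-26b, miR-101a and miR-101b, out of 584 miRNA assays. The assays were taken by name, for the main strand of each miRNA without the passenger strands marked by an asterisk. OLETF rats are an inbred strain that becomes obese and develops type 2 diabetes, and their samples are labelled diabetes. LETO rats are the lean strain kept as their control, and their samples are labelled healthy control. Every diabetic animal was OLETF and every other one LETO, so diabetes, obesity and strain cannot be told apart, and the labels name no treatment, age or sex. The hearts came from anesthetized and ventilated rats and were frozen at once.

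MicroRNAs are short RNAs that guide a silencing complex to partly matching sites in mRNAs, chiefly through the seed, bases 2 to 8 from the 5′ end. miR-26 is known to restrain connective tissue growth factor and, in the atrium, the inward rectifier potassium channel gene Kcnj2. In rat heart after infarction, miR-101a and miR-101b are known to restrain the transcription factor c-Fos and fibrosis. Both families are also known regulators of EZH2, shown mostly in human and mouse cells. This enzyme places the repressive mark on lysine 27 of histone H3. The 2 families are grouped here as antifibrotic miRNAs, a role not tested in these data.

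The mature rat sequences are shown because the paralogues share a seed and differ by 1 or 2 bases, which an assay has to tell apart. They are RefSeq sequences of build GRCr8, written 5′ to 3′ with the seed in capitals, and were not read from the assays, which carry mouse names.
miR-26a (rno-miR-26a-5p): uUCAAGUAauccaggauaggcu
miR-26b (rno-miR-26b-5p): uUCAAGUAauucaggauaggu
miR-101a (rno-miR-101a-3p): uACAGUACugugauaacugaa
miR-101b (rno-miR-101b-3p): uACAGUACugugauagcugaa

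With positions counted from 1 at the 5′ end, miR-26b differed from miR-26a by C11U and C21U and was 21 bases long against 22. miR-101b differed from miR-101a by A16G alone, and both had 21 bases. All 3 substitutions lay outside the seed, so the paralogues of a family carry the same seed. Of 693 rat mature miRNAs in the RefSeq table, 2 had the seed UCAAGUA and 2 the seed ACAGUAC, in each case the paralogue pair itself. One further miRNA, miR-144-3p, shared bases 2 to 7 with the miR-101 pair (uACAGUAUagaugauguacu, chr10:63459446-63459465, plus strand), and it was not analysed here.

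The 4 miRNAs come from 4 chromosomes. miR-26a lies at chr8:127633063-127633084 on the plus strand, within the gene Ctdspl, and miR-26b at chr9:83425723-83425743 on the plus strand, within Ctdsp1. Ctdspl and Ctdsp1 are related genes of small phosphatases that act on the tail of RNA polymerase II. miR-101a lies at chr5:121081691-121081711 on the minus strand, within the long noncoding RNA gene LOC120102934. miR-101b lies at chr1:236273982-236274002 on the plus strand, within Rcl1, whose product acts in ribosomal RNA processing.

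All 4 assays gave a signal in every well of every sample. miR-26a, miR-26b and miR-101a had 1 well per sample on the first block of 384 wells, called card A here, and miR-101b had 2 wells on the second, card B. The measurement is a threshold cycle (Ct), the PCR cycle at which product becomes visible. Abundant RNAs have a low Ct, and a shift of 1 cycle stands for 1 log2 unit where amplification doubles the product at every cycle. The precision of a single well can be read from the 2 wells of miR-101b, which differed by at most 0.350 cycles, or an SD of 0.168 cycles over 6 pairs. Over all 189 such pairs on card B with both wells under 35 cycles the SD was 0.486 cycles.

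One LETO sample stood apart. LETO replicate 3 had a median Ct of 26.5 on card A, against 27.96 to 30.02 in the other 5 samples, and it measured 292 of 584 assays where the others measured 197 to 228. Its low Ct values touched every member, so the values without it are given beside those of all samples. The tissue is known from the labels. All 7 assays of 6 cardiomyocyte marker miRNAs, miR-1 and miR-133a among them, were measured in all 6 samples, whereas miR-122 of liver and miR-375 of islets gave no measured value.

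In raw Ct, miR-26a stood at 24.9, 25.05 and 23.5 cycles in OLETF replicates 1, 2 and 3, and at 25.4, 25.1 and 21.6 cycles in the LETO replicates. miR-26b stood at 27.4, 27.4 and 24.8 cycles in OLETF and at 27.7, 27.5 and 23.7 cycles in LETO. miR-101a, the scarcest by Ct, stood at 30.98, 31.8 and 30.1 cycles in OLETF and at 31.5, 31.1 and 28.0 cycles in LETO. miR-101b stood at 29.5, 28.9 and 27.2 cycles in OLETF and at 27.8, 28.6 and 25.3 cycles in LETO. For all 4 the lowest Ct, and so the strongest signal, was that of LETO replicate 3, followed by OLETF replicate 3.

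Levels were then set against U6, the small nuclear RNA that the study used as its control, as U6 Ct minus miRNA Ct on the same card. Relative to U6, miR-26a was at -7.21, -7.11 and -5.27 log2 units in OLETF and at -6.22, -7.63 and -3.74 in LETO. The groups overlapped, since LETO held both the highest and the lowest sample. The means were -6.53 ± 1.10 in OLETF and -5.86 ± 1.97 in LETO (SD, n = 3 each), a difference of -0.67 (SE 1.38, limma adjusted p = 0.997, exact permutation p = 0.7).

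miR-26b relative to U6 was at -9.73, -9.50 and -6.59 log2 units in OLETF and at -8.51, -10.07 and -5.81 in LETO. LETO again held both extremes, and the groups overlapped. The means were -8.61 ± 1.75 in OLETF and -8.13 ± 2.16 in LETO (SD, n = 3 each), a difference of -0.48 (SE 1.38, limma adjusted p = 0.997, exact permutation p = 0.7).

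miR-101a relative to U6 was at -13.34, -13.88 and -11.93 log2 units in OLETF and at -12.29, -13.62 and -10.09 in LETO. The highest sample was LETO and the lowest OLETF, with overlap between them. The means were -13.05 ± 1.01 in OLETF and -12.00 ± 1.78 in LETO (SD, n = 3 each), a difference of -1.05 (SE 1.38, limma adjusted p = 0.997, exact permutation p = 0.6).

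miR-101b relative to U6 was at -12.55, -12.00 and -9.29 log2 units in OLETF and at -10.03, -12.49 and -7.31 in LETO. Its lowest sample, OLETF replicate 1, lay close to LETO replicate 2, and the groups overlapped. The means were -11.28 ± 1.74 in OLETF and -9.94 ± 2.59 in LETO (SD, n = 3 each), a difference of -1.34 (SE 1.38, limma adjusted p = 0.997, exact permutation p = 0.6).

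**Figure D1:**
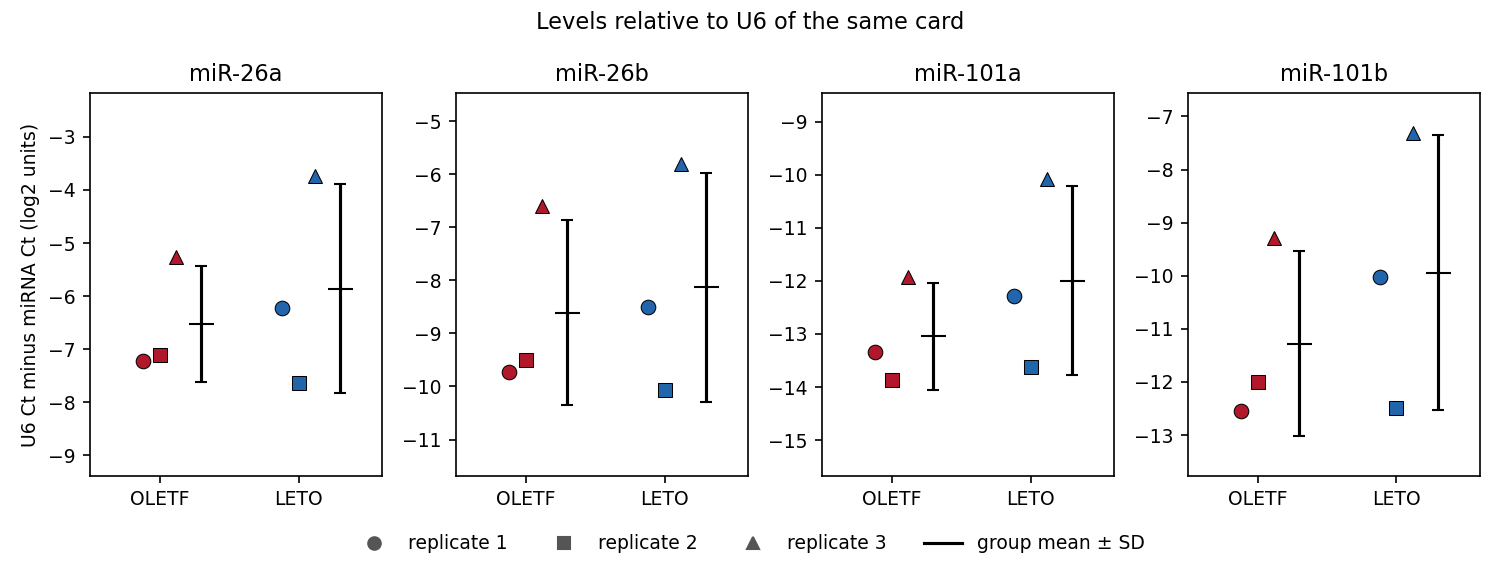
Level of each miRNA relative to U6 of the same card (y axis, log2 units) in the 3 OLETF and 3 LETO samples; points are samples, shaped by replicate number, and the bar beside them is the group mean ± SD. In every panel the 2 triangles, replicate 3 of each group, lie above the other samples of their group, and the groups overlap.

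No member passed the test relative to U6, and neither did any other assay, with 0 of 193 tested assays (0%) at a limma adjusted p under 0.05. At an unadjusted p under 0.05 there were 2 assays, both lower in OLETF (1.04%) and neither of them a member. The 4 members lay lower in OLETF, as did 80.8% of the tested assays. The median change of all tested assays was -0.60, so the change of miR-26a was 88th and that of miR-26b 115th of 193 counted from the most negative, while miR-101a was 51st and miR-101b 30th. The limma SE was 1.38 for each of the 4, because limma in effect pooled the spread over assays; the sample SDs given above show how each miRNA itself varied. A design of 3 against 3 samples allows no exact permutation p below 0.1.

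The direction of the miR-26 values depended on which samples were kept. Without LETO replicate 3, the differences relative to U6 were 0.39 for miR-26a and 0.68 for miR-26b, now higher in OLETF. They were -0.09 for miR-101a and -0.02 for miR-101b, and the median over all tested assays turned as well, to 0.38. With replicate 3 of both groups left out, miR-26a and miR-26b stayed lower in OLETF, as given below. LETO replicate 2 acted the other way, and without it the differences were -1.55 for miR-26a, -1.45 for miR-26b, -1.85 for miR-101a and -2.61 for miR-101b. Replicate 3 of each group had also been handled differently in the deposited ratios of card B, so values were taken within replicates 1 and 2 and within replicate 3. The difference relative to U6 was -0.24 within replicates 1 and 2 and -1.53 within replicate 3 for miR-26a, and -0.32 and -0.79 for miR-26b. It was -0.65 within replicates 1 and 2 and -1.84 within replicate 3 for miR-101a, and -1.02 and -1.98 for miR-101b. Leaving out a single OLETF sample turned the direction of miR-26b alone, to 0.08 without OLETF replicate 1, and brought it to -0.03 without OLETF replicate 2. Without OLETF replicates 1, 2 and 3 in turn the difference was -0.33, -0.38 and -1.30 for miR-26a, -0.90, -0.63 and -1.61 for miR-101a, and -0.70, -0.98 and -2.33 for miR-101b. Without OLETF replicate 3 miR-26b stood at -1.49.

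Samples as a whole shifted together relative to U6, so the members were also set against the median Ct of the assays of their own card measured in all 6 samples (122 assays for card A, 40 for card B). Against this median the spread fell and miR-101a separated the groups. Over all 6 samples, the SD of miR-101a was 1.42 log2 units relative to U6 and 0.53 relative to the card median. That of miR-26a was 1.47 and 0.34, that of miR-26b 1.78 and 0.65, and that of miR-101b 2.11 and 0.48.

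miR-101a relative to the card median was at -2.05, -2.81 and -2.19 log2 units in OLETF and at -1.47, -1.56 and -1.48 in LETO. All 3 OLETF samples lay below all 3 LETO samples, and the LETO samples lay within 0.1 log2 units of each other. The means were -2.35 ± 0.40 in OLETF and -1.504 ± 0.047 in LETO (SD, n = 3 each). miR-101a had 1 well per sample. The SD of a single well on card B was 0.168 cycles for miR-101b and 0.486 cycles over all pairs. The LETO SD of miR-101a lies below both, so the closeness of its LETO samples cannot be read as precision. The difference was -0.84 (SE 0.37), or an OLETF level 0.557 times that of LETO. Its unadjusted limma p was 0.049, its limma adjusted p = 0.632, and its exact permutation p = 0.1 the smallest that 3 against 3 can give. It was the one member of 4 whose groups did not overlap, and 9.26% of the 162 assays measured in all samples separated the groups with OLETF lower and 4.32% with OLETF higher. miR-101a stayed lower in OLETF by -0.99 to -0.61 when any 1 sample was left out, and differed by -0.91 within replicates 1 and 2 and by -0.71 within replicate 3.

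miR-101b relative to the card median was at 1.20, 1.16 and 1.45 log2 units in OLETF and at 1.37, 1.69 and 2.46 in LETO. OLETF was lower in 8 of 9 pairs of samples, and OLETF replicate 3 lay just above LETO replicate 1. The means were 1.27 ± 0.16 in OLETF and 1.84 ± 0.56 in LETO (SD, n = 3 each), a difference of -0.57 (SE 0.40, limma adjusted p = 0.634, exact permutation p = 0.2). Without LETO replicate 3 the difference was -0.26, and it was -0.35 within replicates 1 and 2 and -1.01 within replicate 3.

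miR-26a relative to the card median was at 4.07, 3.96 and 4.47 log2 units in OLETF and at 4.60, 4.43 and 4.87 in LETO. OLETF was lower in 8 of 9 pairs, with OLETF replicate 3 just above LETO replicate 2. The means were 4.17 ± 0.27 in OLETF and 4.63 ± 0.22 in LETO (SD, n = 3 each), a difference of -0.47 (SE 0.36, limma adjusted p = 0.636, exact permutation p = 0.2). The difference was -0.35 without LETO replicate 3, -0.50 within replicates 1 and 2 and -0.40 within replicate 3.

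miR-26b relative to the card median was at 1.56, 1.56 and 3.14 log2 units in OLETF and at 2.31, 1.99 and 2.80 in LETO. OLETF held both the lowest samples and the highest, so OLETF was lower in 6 of 9 pairs. The means were 2.09 ± 0.91 in OLETF and 2.37 ± 0.41 in LETO (SD, n = 3 each), a difference of -0.28 (SE 0.52, limma adjusted p = 0.828, exact permutation p = 0.6). The difference was -0.59 within replicates 1 and 2 but 0.34 within replicate 3, and -0.06 without LETO replicate 3, -0.01 without OLETF replicate 1, -0.01 without OLETF replicate 2 and -0.80 without OLETF replicate 3.

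**Figure D2:**
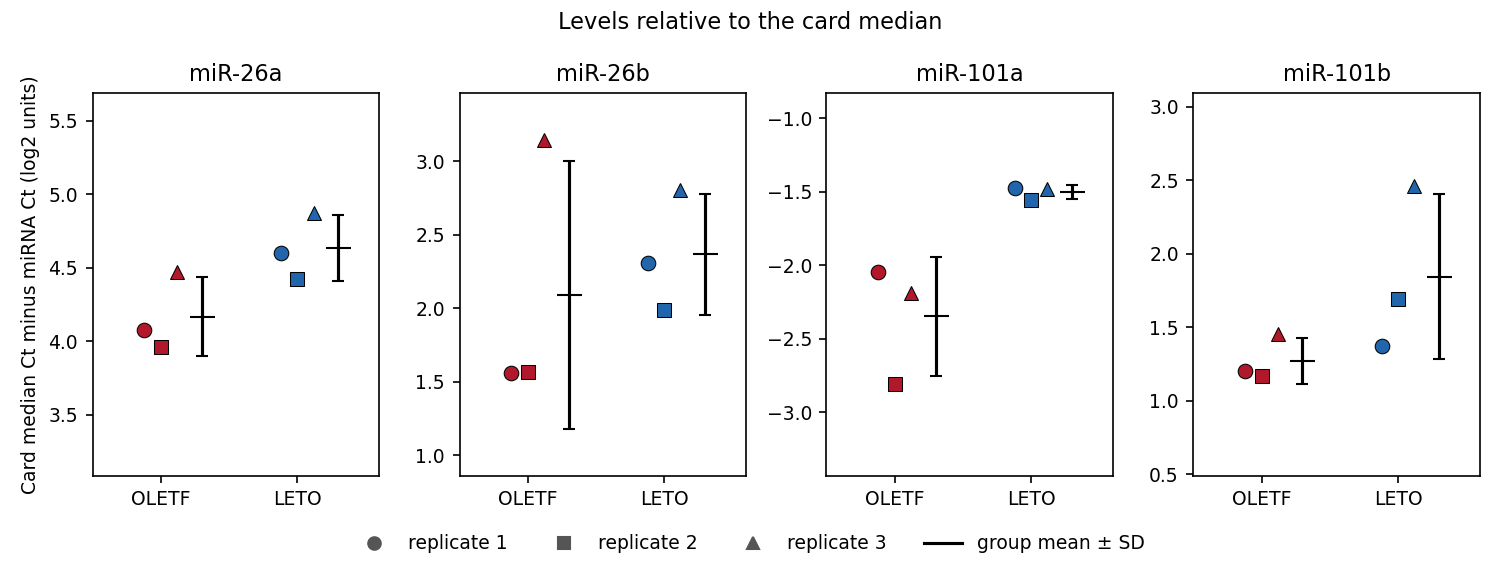
Level of each miRNA relative to the median of its card (y axis, log2 units) in the 3 OLETF and 3 LETO samples; points are samples, shaped by replicate number, and the bar beside them is the group mean ± SD. The 3 OLETF points of miR-101a, -2.81 to -2.05, lie below its LETO points, -1.56 to -1.47, while the groups overlap for the other 3 miRNAs.

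With the per-card median as reference 0 of 193 assays (0%) passed a limma adjusted p of 0.05 and 12 had an unadjusted p under 0.05. Of these 12, 9 were lower in OLETF (4.66%), miR-101a among them. The 4 members lay lower, as did 67.4% of all tested assays, whose median was -0.31. miR-26a and miR-26b thus stayed near the middle of all assays, 75th and 101st of 193 counted from the most negative, while miR-101a was 28th and miR-101b 61st.

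The direction of the miR-26 paralogues also turned with the reference. With the median over both cards together the change was -0.18 for miR-26a and 0.01 for miR-26b, around a median of -0.18 for all assays, against -0.56 for miR-101a and -1.08 for miR-101b. With quantile normalization it was -0.17 for miR-26a, 0.12 for miR-26b, -0.46 for miR-101a and -1.03 for miR-101b, where all assays had a median of -0.02. With U87, snoRNA135 and, on card A, Y1 as small RNA controls in place of U6 it was 0.18 for miR-26a, 0.37 for miR-26b, -0.19 for miR-101a and 0.17 for miR-101b, where the median of all assays was 0.37. miR-101a thus lay below the median of all tested assays, and below 0, under each of these references, and miR-101b lay below that median under each but above 0 with the other small RNA controls.

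**Figure D3:**
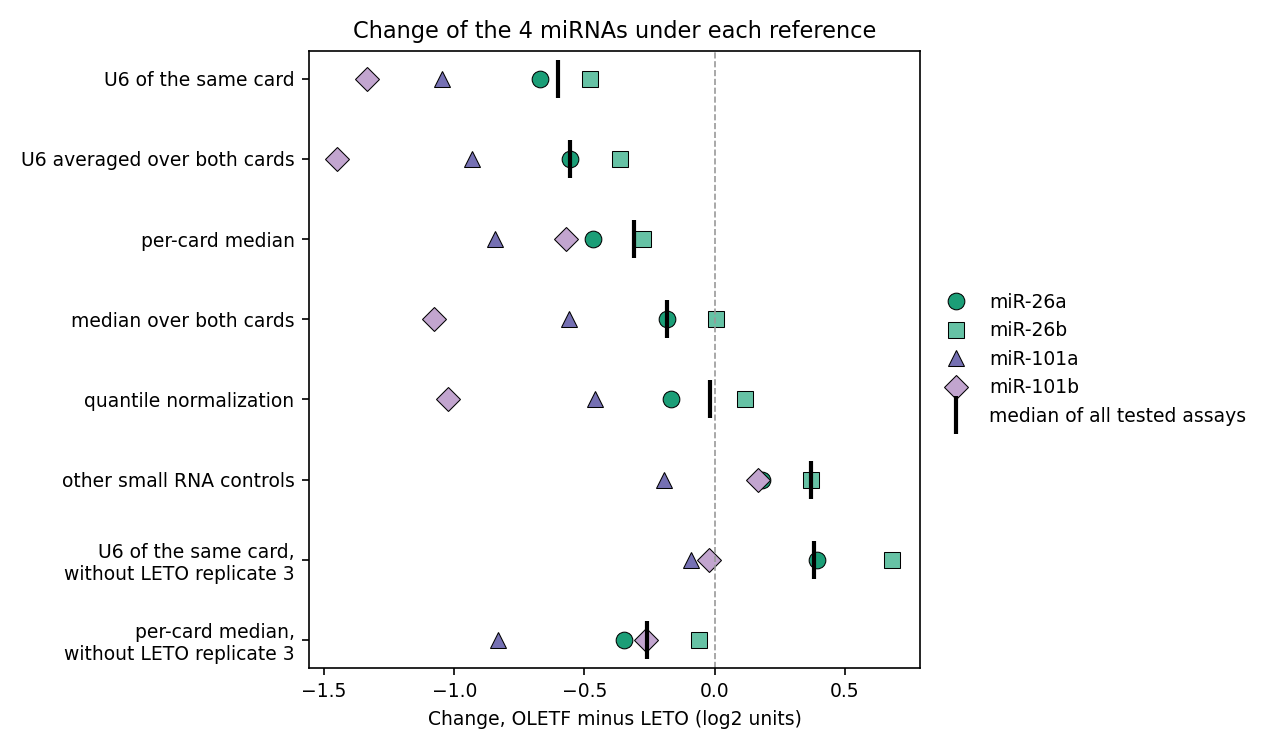
Change of each miRNA, OLETF minus LETO (x axis, log2 units), under 6 references and, for 2 of them, without LETO replicate 3 (rows); the black bar is the median change of all tested assays. miR-101a lies left of the black bar in every row, from -1.05 to -0.09, and miR-26b lies right of it or on it in every row.

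The place of each member among the assays of its card was also taken in each sample, rank 1 being the lowest Ct. Ranks need no control RNA, but they use the same assays whose median served as the card reference. They are thus not a separate check on the values relative to the card median. miR-26a ranked 17, 18 and 18 of 122 in OLETF and 18, 18 and 16 in LETO. miR-26b ranked 42, 37 and 25 of 122 in OLETF and 39, 36 and 28 in LETO, with replicate 3 of each group ahead of the others. Neither miR-26 paralogue separated the groups by rank.

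miR-101a ranked 94, 102 and 103 of 122 in OLETF and 90, 87 and 88 in LETO, and miR-101b ranked 13, 13 and 13 of 40 in OLETF and 12, 11 and 10 in LETO. Both miR-101 paralogues thus stood farther down the order of their card in every OLETF sample than in any LETO sample (exact permutation p = 0.1 for each, the smallest possible). The same was true of 6.17% of the 162 assays measured in all samples, and as many moved the other way. For miR-101b the gap between the groups was a single rank.

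Paralogues were then compared inside each sample. miR-26a and miR-26b lay on the same card, so their Ct difference carries no reference. miR-26b came later than miR-26a by 2.51, 2.39 and 1.33 cycles in OLETF and by 2.30, 2.44 and 2.07 cycles in LETO. miR-26a was the stronger signal in 6 of 6 samples, by a mean that corresponds to 4.51-fold if both assays amplify equally well, which these files do not test. The difference averaged 2.08 ± 0.653 cycles in OLETF and 2.27 ± 0.186 cycles in LETO (SD, n = 3 each), and the groups overlapped (difference -0.191 cycles, exact permutation p = 0.9). OLETF replicate 3 had the smallest difference, and without it the value turned to 0.185 cycles, while without LETO replicate 3 it was -0.290 cycles.

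miR-101a and miR-101b lay on different cards, so their Ct difference also holds any difference between the cards. miR-101b came earlier than miR-101a in 6 of 6 samples, with miR-101b minus miR-101a at -1.46, -2.95 and -2.99 cycles in OLETF and at -3.74, -2.51 and -2.71 cycles in LETO. The means were -2.47 ± 0.874 cycles in OLETF and -2.99 ± 0.660 cycles in LETO (SD, n = 3 each), with overlapping groups (difference 0.519 cycles, exact permutation p = 0.6). Replicate 1 of each group set the extremes, and the difference between groups was 0.0146 cycles without OLETF replicate 1, 0.143 cycles without LETO replicate 1 and 0.659 cycles without LETO replicate 3.

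The pair was therefore also compared with each level taken relative to its own card. Over the 6 samples, the SD of the difference was 0.749 cycles in Ct, 0.81 log2 units relative to U6 of each card and 0.44 log2 units relative to each card median. Relative to U6 of each card, the level of miR-101b exceeded that of miR-101a by 0.79, 1.88 and 2.63 log2 units in OLETF and by 2.26, 1.13 and 2.78 in LETO (difference between groups -0.29, exact permutation p = 0.7). Relative to each card median it did so by 3.25, 3.97 and 3.64 log2 units in OLETF and by 2.85, 3.25 and 3.94 in LETO (difference 0.27, exact permutation p = 0.5). The sign of the group difference thus depended on the reference, and the groups overlapped under each. In these data miR-101b stood above miR-101a in every sample on each scale, but the size of its lead ranged from 0.79 to 3.97 log2 units with the sample and the reference. The card medians are taken over different assays, 122 on card A and 40 on card B. A lead relative to them is thus not a ratio of abundance.

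**Figure D4:**
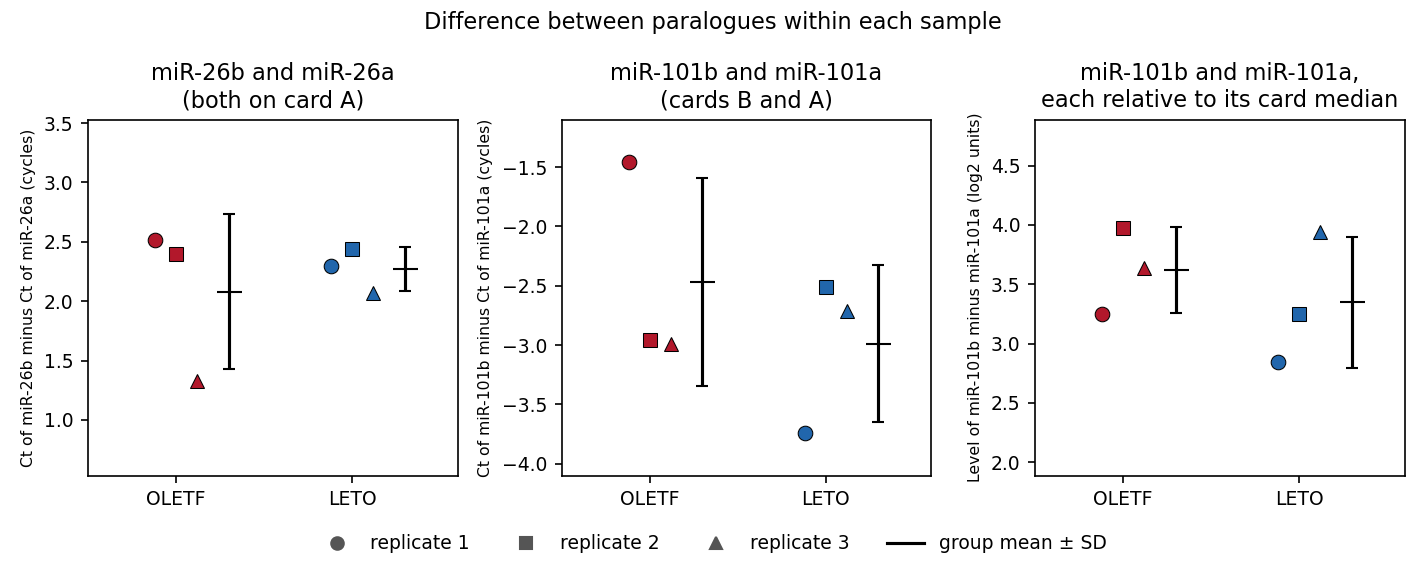
Difference between paralogues within each sample for 3 OLETF and 3 LETO samples: Ct of miR-26b minus miR-26a (left, cycles), Ct of miR-101b minus miR-101a (middle, cycles) and the level of miR-101b minus miR-101a relative to each card median (right, log2 units). Points are samples, shaped by replicate number, bars are group means ± SD, and the groups overlap in each panel.

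Across families on card A, miR-101a came later than miR-26a by 6.12, 6.76 and 6.66 cycles in OLETF and by 6.08, 5.99 and 6.35 cycles in LETO. The gap was wider in OLETF by 0.376 cycles on average, with overlapping groups (exact permutation p = 0.2). Over the 3 pairs of assays compared in this way, the smallest adjusted p was 0.6 (Benjamini-Hochberg, exact permutation tests). Relative to U6, the order of the levels was miR-26a, miR-26b, miR-101b and miR-101a from high to low in each of the 6 samples. Relative to U6, miR-26b led miR-101b, which lies on the other card, by 2.49 to 2.82 log2 units in OLETF and by 1.51 to 2.42 in LETO. This lead also holds any difference of U6 between the cards. It was not tested, and how many other pairs across the cards part in this way was not counted. Relative to the card medians, which are taken over different assays, the lead was 0.36 to 1.69 log2 units in OLETF and 0.29 to 0.93 in LETO, with overlapping groups. Between samples, though, the levels of neighbouring miRNAs overlapped, miR-26a at -7.63 in LETO replicate 2 lying below miR-26b at -6.59 in OLETF replicate 3.

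A miRNA that follows another closely keeps a constant Ct difference from it, so the SD of that difference over the 6 samples was taken as the measure of likeness, within a card. The assay closest to miR-26a was miR-30d, with an SD of 0.126 cycles, followed by let-7g (0.141) and miR-133b (0.149), against a median of 0.524 over 121 assays. miR-26b, its own paralogue, came 45th of 121 with an SD of 0.442 cycles, behind miR-101a, which came 25th with 0.323. miR-30d and let-7g belong to broadly expressed families, and miR-133b is a muscle miRNA.

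miR-26b in turn was followed most closely by miR-30c (0.159 cycles), by miR-142-3p, a miRNA of blood cells (0.212), and by miR-339-5p (0.243), with miR-26a 19th of 121. miR-101a was followed most closely by miR-31 (0.144 cycles), miR-181a (0.161) and miR-29b, known for targeting collagen mRNAs (0.211), with miR-26a 11th and miR-26b 64th of 121. miR-101b on card B was followed most closely by miR-24-2* (0.155 cycles), miR-322* (0.270) and miR-378 (0.270), against a median of 0.651 over 39 assays. The assays compared in this way share the RNA and the card within each sample. These SDs are descriptions over 6 samples, and they include the differences between strains.

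**Figure D5:**
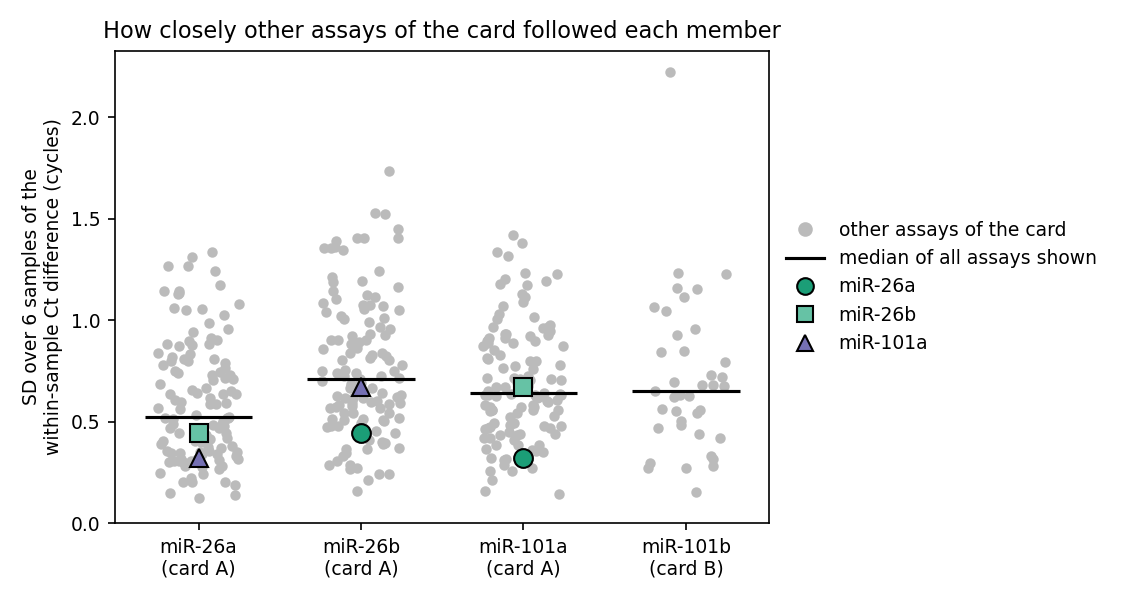
SD over 6 samples of the within-sample Ct difference (y axis, cycles) between each miRNA (x axis) and every other assay of its card measured in all samples; grey points are other assays, coloured points the other family members on that card, and the black line the median. miR-26b stands at 0.442 cycles from miR-26a, above 44 closer assays, and the closest assay to each of the 4 miRNAs lies between 0.126 and 0.159 cycles.

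Other miRNAs linked to fibrosis did not pass the test either. Of 28 assays for 27 names, 23 were tested, of which 18 lay lower and 5 higher in OLETF relative to U6 and 0 passed, with a median of -0.46 against -0.60 for all tested assays. Relative to the card median, 17 lay lower and 6 higher, with a median of -0.26 against -0.31. The share of all tested assays lower in OLETF was 80.8% relative to U6 and 67.4% relative to the card median. miR-34a, a p53 target linked to heart ageing in mice, had the smallest limma p of the list on both scales, at -1.56 ± 0.86 in OLETF and -0.45 ± 0.38 in LETO relative to the card median (SD, n = 3 each; change -1.11, limma adjusted p = 0.632). The mouse-named assay of miR-1, a muscle miRNA, was second relative to U6 (-1.31). The rat-named assay of miR-1 gave a stronger signal, at 20.1 to 23.7 cycles against 25.3 to 28.0 for the mouse-named one. It also lay lower in OLETF, but was not among the smallest p of the list. miR-155, a leukocyte miRNA, was second relative to the card median (0.89, higher in OLETF). The strongest signals of the list, those of miR-133a and miR-24, differed by -0.22 and 0.13 relative to the card median.

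Other miRNAs known to act on EZH2 did not pass either. Of 10 assays 7 were tested, with 5 lower and 2 higher relative to U6, 0 past the test and a median of -0.48. Among all 193 tested assays 80.8% lay lower relative to U6, with a median of -0.60. Relative to the card median, 4 lay lower and 3 higher, with a median of -0.28, against 67.4% lower and a median of -0.31 for all tested assays. let-7a had the smallest limma p of this list, at -2.20 ± 0.33 in OLETF and -1.31 ± 0.68 in LETO relative to the card median (SD, n = 3 each; change -0.89, limma adjusted p = 0.632), and let-7e followed at -0.70. miR-214, a fibroblast miRNA and the strongest signal of the list, differed by 0.38.

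Cell type markers were measured beside the members, since fewer cells of a type and less RNA per cell cannot be told apart in whole tissue. Their levels are summed on the linear scale over the assays measured in all samples, relative to the card median, and given in log2 units. A linear sum mainly follows its strongest assay, here miR-133a for cardiomyocytes, miR-126-3p for endothelium and miR-150 for leukocytes. The mean of miR-133a alone was 11.16 in OLETF and 11.38 in LETO. The 7 cardiomyocyte assays summed to 10.73 to 11.66 in OLETF and 10.09 to 12.22 in LETO. All 7, which include a mouse-named and a rat-named assay of miR-1, lay lower in OLETF relative to U6 and relative to the card median, like the 4 members. So did most tested assays, 80.8% relative to U6 and 67.4% relative to the card median. Relative to the card median, the median change of the 7 was -0.34 against -0.31 for all tested assays. In the limma test 0 of the 7 passed. The 2 endothelial assays summed to 8.88 to 9.51 in OLETF and 8.74 to 9.60 in LETO, and the 2 smooth muscle assays to 4.74 to 5.91 in OLETF and 5.08 to 6.15 in LETO. Of the fibroblast markers, 3 of 4 gave sums of 2.04 to 2.96 in OLETF and 2.25 to 3.06 in LETO. Of the leukocyte markers, 4 of 5 gave 6.82 to 7.82 in OLETF and 5.96 to 8.03 in LETO. Erythroid miR-486 stood at 5.17 to 6.05 in OLETF and 3.78 to 6.13 in LETO, while miR-451 was measured in LETO replicate 3 alone. Relative to the card median, the tested assays lower in OLETF were 1 of 2 endothelial, 2 of 2 smooth muscle, 2 of 3 fibroblast, 1 of 4 leukocyte and 0 of 1 erythroid assays. The ranges of the summed levels of all 6 lists overlapped between the groups, and their part in the values of the members was not tested.

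The authors' deposited table of ratios gave OLETF over LETO as 0.629 for miR-26a, 0.717 for miR-26b and 0.484 for miR-101a. For the 2 wells of miR-101b the authors' deposited table gave 0.378 and 0.415. These ratios come from the same Ct values relative to U6, and carry no error of their own.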

How the data were processed

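Per the labels' protocols, RNA of the left ventricle was reverse-transcribed from a pool of stem-loop primers and amplified on rodent TaqMan cards. Baseline and threshold settings are not given in the sources used here. The deposited Ct table gives 1 value per well, and the deposited normalized table holds delta Ct, whose scale is log2 with higher values for less RNA. Recomputed as Ct minus the mean of 4 U6 wells per card, with an assay that gave no signal set to 40, delta Ct differed from the deposited values by at most 3.75e-06. The deposited ratio (fold) table equalled 2 raised to minus the difference of mean delta Ct. On card B this held within 0.001 log2 units for 380 of 380 wells when replicate 3 of each group entered as the assay mean, and for 194 when every well entered by itself.

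Wells with a signal were averaged per assay, and means at or over 35 cycles were taken as not measured. Assays measured in at least 2 of 3 samples per group, 193 in all, were fitted with limma 3.58.1 in R 4.3.3 (two-sided, Benjamini-Hochberg over all 193), after a check on simulated data. For single values, exact permutation tests (two-sided, scipy 1.17.1) were used. The labels do not say that samples came from separate litters or days, so p-values measure the spread between these 6 samples. No counts lie behind a Ct, so no counting interval is given. The groups and replicate numbers come from the sample titles.

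The members, the miRNA lists, the tests and the per-card median reference were chosen with earlier results of these data known. The design assumed that both miR-101 assays shared a card, which they did not. The text names every member, the 3 closest same-card assays of each, and of the fibrosis and EZH2 lists the 2 assays with the smallest p and the 2 strongest. The main tests did not pair samples by replicate number, and whether the numbers mark a shared run was not settled. Alternatives were other references, Ct limits, the deposited normalized table, array weights, blocks and samples left out.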

Additional observations from a re-analysis of the deposited data

How the results depend on the processing

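Under other settings no member passed a limma adjusted p of 0.05 except miR-101b with array weights (-2.04, adjusted p = 0.0294), where 30 of 193 assays passed, all lower (15.5%), and where LETO replicate 1 (weight 3.06) outweighed LETO replicates 2 and 3 (0.322 and 0.241). The count of assays past the test was also 1 with the replicate block and 1 with replicate 3 as a batch block, and 0 in the other settings; the cause was not tested. The sign turned for miR-26a with the other small RNA controls (0.18). For miR-26b it turned with these controls (0.37), the median over both cards (0.0065) and quantile normalization (0.12), and for miR-101b with the other small RNA controls (0.17). With 1 sample left out, under U6 or the per-card median, changes ran from -1.55 to 0.39 for miR-26a, -1.49 to 0.68 for miR-26b, -1.85 to -0.09 for miR-101a and -2.61 to -0.02 for miR-101b. The miR-26 paralogue difference ran from -0.408 to 0.185 cycles with 1 sample left out and turned to 0.0856 within replicates 1 and 2. That of miR-101 ran from 0.0146 to 0.781 cycles, and turned to -0.272 relative to each card median. Deviations of same-numbered samples correlated at -0.088, 0.23 and 0.62 for replicates 1, 2 and 3, so replicate 3 of each group deviated partly alike. Replicate numbers were not used for pairing in the main tests. The replicate block left miR-101a at -1.05, lowered its SE from 1.38 to 0.81 (limma adjusted p = 0.757) and changed no call among the members. The card comparisons and single wells of miR-101b were added after seeing the data.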

Other observations

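The passenger strand of miR-26b, miR-26b*, came late on card B. Its first well gave a Ct of 35.03, 34.2 and 32.9 in OLETF and of 33.4, 33.8 and 30.6 in LETO, and its second well gave no signal in OLETF replicate 1. The first well of miR-101a* gave a signal in 1 of 6 samples, at 34.8 cycles in LETO replicate 3. Its second well gave one in 3 of 6 samples, at 34.8 cycles in OLETF replicate 3 and at 36.03 and 36.6 cycles in LETO replicates 2 and 3.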
